A study of Mus musculus with 8 samples.

Results

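The transcription factors analysed here are 10 genes of the pluripotency network of mouse embryonic stem cells (mESCs), chosen by symbol and not by their measured change: Pou5f1 (encoding OCT4), Sox2 and Nanog as the core factors, and Klf2, Klf4, Klf5, Esrrb, Tfcp2l1, Tbx3 and Zfp42 (also called Rex1) as factors or markers of the naive state. They are 10 of 24062 genes in the count data, and 10 of 10 passed the expression filter that 15313 genes passed. OCT4 and SOX2 bind DNA together at composite sites, and with NANOG they activate one another and the genes that keep the cells undifferentiated. The naive factors tie this core to external signals. LIF acts through STAT3 on Klf4 and Tfcp2l1, WNT signalling relieves TCF7L1 repression of Esrrb and other targets, and FGF and ERK signalling drives cells out of the naive state towards a formative and later a primed state in which Fgf5 and Otx2 are expressed and Zfp42 is lost.

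The study asked what the histone H3 lysine 9 methyltransferases contribute to gene repression and genome organization, and poly(A) RNA of 8 libraries was sequenced for 4 groups with 2 replicates each. All groups are the mESC line #33-6, which carries a conditional allele of Setdb1, the gene of an H3K9 methyltransferase. WT mESCs were untreated. The UNC0642 group received 2 µM UNC0642, an inhibitor of the catalytic activity of the methyltransferases G9a and GLP, for 3 days. The Setdb1 KO received 800 nM 4-hydroxytamoxifen (4-OHT), which induces deletion of the conditional allele, for 5 days. The KO with UNC0642 received 800 nM 4-OHT for 2 days followed by 2 µM UNC0642 for 3 days by the sample labels, while the study's methods give 5 days of 4-OHT. The groups come from 1 cell line, and no group received 4-OHT without the deletion, so the loss of Setdb1 and the exposure to 4-OHT cannot be told apart. Fewer cells of a kind and less RNA per cell cannot be told apart in these bulk samples either.

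The libraries held between 11702590 and 26807807 counts, and the lowest count of any of the 10 factors in any library was 266 (Tbx3 in WT replicate 1), so counting error was small beside the difference between replicates. Setdb1, the deleted gene, had 148 ± 29.8 CPM (counts scaled to the normalized library total; mean ± SD, n = 2) in WT, 108 ± 31.2 in the UNC0642 group, 49.1 ± 2.63 in the Setdb1 KO and 47.6 ± 19.1 in the KO with UNC0642. Its log2 fold change over WT was -1.59 (SE 0.44) in the Setdb1 KO (edgeR adjusted p = 0.181, and 0.0164 in the fit blocked on the replicate number) and -1.64 (SE 0.44) in the KO with UNC0642 (adjusted p = 0.0746, and 0.00593 with the block). The 4 libraries labelled KO were below the 4 others. Replicates 1 and 2 of the 4 groups differed in a common direction over genes (pairwise r of the deviations between 0.285 and 0.663 for 6 pairs of groups), and WT replicate 1 and KO with UNC0642 replicate 1 were the shallowest libraries.

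The windows upstream of Zfp42 and Nanog are shown because Zfp42 lay above WT in all treated libraries and Nanog is a known target of OCT4 and SOX2. They were taken from RefSeq on GRCm38.p6 and cover up to 250 bases upstream of the annotated start, 5′ to 3′ on the strand of the gene. Capitals mark matches on either strand to the octamer ATTTGCAT, the shorter POU motif TTTGCAT that is contained in it, the SOX motif CATTGT, the KLF motif GGGTGTGG and the GC box GGGCGG. The Zfp42 window is chr8:43307010-43307259 (minus strand) and the Nanog window chr6:122707239-122707488 (plus strand).
Zfp42: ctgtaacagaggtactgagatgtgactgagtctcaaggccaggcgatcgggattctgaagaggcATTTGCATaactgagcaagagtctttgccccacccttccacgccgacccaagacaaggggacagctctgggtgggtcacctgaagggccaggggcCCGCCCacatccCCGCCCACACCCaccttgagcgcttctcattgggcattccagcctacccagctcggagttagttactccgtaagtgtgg
Nanog: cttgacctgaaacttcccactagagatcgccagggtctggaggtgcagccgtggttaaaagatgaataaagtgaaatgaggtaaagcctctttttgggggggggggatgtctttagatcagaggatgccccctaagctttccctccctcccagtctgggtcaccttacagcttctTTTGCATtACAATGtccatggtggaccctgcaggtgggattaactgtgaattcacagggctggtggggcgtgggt
In the Zfp42 window the octamer lay 186 to 179 bases upstream of the start, and the KLF motif, read on the opposite strand as CCACACCC, lay 75 to 68 bases upstream and overlapped 1 of 2 GC boxes (79 to 74 and 91 to 86). In the Nanog window the POU motif lay 75 to 69 and the SOX motif, read as ACAATG, 67 to 62 bases upstream, with 1 base between them.

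Windows were found for 8 of the 10 factors, with none for Klf5 and Tbx3. These 8 had 11 windows, and a factor was counted if any of its windows held the motif. The shares of all windows are per window, so the 2 are unlike units. Windows of Nanog (174 bases), Klf2 (221) and Pou5f1 (236) were cut at the annotated gene start, which was not done for the other windows. The octamer was present in 1 of the 8 (Zfp42) and in 1.6% of all 32851 windows, the POU motif TTTGCAT in 3 of 8 (Nanog, Sox2 and Zfp42) and in 4.12% of all windows, and the SOX motif in 2 of 8 (Nanog and Pou5f1, there in a second window inside the gene) and in 10.7%. The KLF motif was found in 1 of 8 (Zfp42, 3.2% of all windows), the GC box in 5 of 8 (Klf2, Klf4, Pou5f1, Sox2 and Zfp42, 32.7%), the TATA motif TATAAA in 1 of 8 (Tfcp2l1, 12.4%) and the ESRRB motif AAGGTCA in 0 of 8 (4.08%). A match is a description of the letters in the window.

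Divided by the length of the principal transcript, the levels of the 10 factors formed an order led by the core factors and Zfp42. Pou5f1 was highest with 573 ± 148 CPM per kb (mean ± SD, n = 8 libraries of all groups), followed by Zfp42 (430.5 ± 178), Sox2 (311 ± 40.4) and Nanog (178 ± 67.8). Esrrb (89.7 ± 39.9), Klf2 (80.1 ± 28.9) and Klf5 (71.0 ± 45.7) were lower, and Klf4 (32.0 ± 16.7), Tfcp2l1 (25.3 ± 8.96) and Tbx3 (24.8 ± 14.8) were lowest. In this order only Sox2 and Nanog, and Nanog and Esrrb, had neighbouring means that lay further apart than the larger of their SDs. These SDs pool the 4 groups and leave out that the factors were measured in the same libraries, so they do not decide which factors are separated. Klf5 was above Klf4 in every library (18.6 and 9.26 in WT replicate 1). Nanog (302) was above Sox2 (286) in replicate 2 of the KO with UNC0642. The order of the group means changed between groups, but not in replicate 2 for the pairs named next. In WT Sox2 (318) was above Zfp42 (266) and Tbx3 (9.96) below Klf4 (19.6), as mean CPM per kb of 2 libraries. In the Setdb1 KO Zfp42 (415) was above Sox2 (313) and Tbx3 (34.7) above Klf4 (27.8). In WT replicate 2, however, Zfp42 (345) was already above Sox2 (290.3). In Setdb1 KO replicate 2 Tbx3 (17.9) was still below Klf4 (22.3). By mean CPM without division by length, all 10 were within the upper 2213 of the 15313 genes tested.

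The factors also differed in their spread over the 8 libraries, which was smallest for Sox2 and largest for Tbx3. The highest library exceeded the lowest by 1.39-fold for Sox2, 2.11-fold for Pou5f1 and 2.62-fold for Klf2, and by 7.10-fold for Klf4, 8.52-fold for Klf5 and 11.1-fold for Tbx3. The lowest library was WT replicate 1 for 7 of the 10 (Pou5f1, Nanog, Klf4, Klf5, Esrrb, Tbx3 and Zfp42), Setdb1 KO replicate 2 for Sox2 and Tfcp2l1, and UNC0642 replicate 1 for Klf2.

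**Figure D1:**
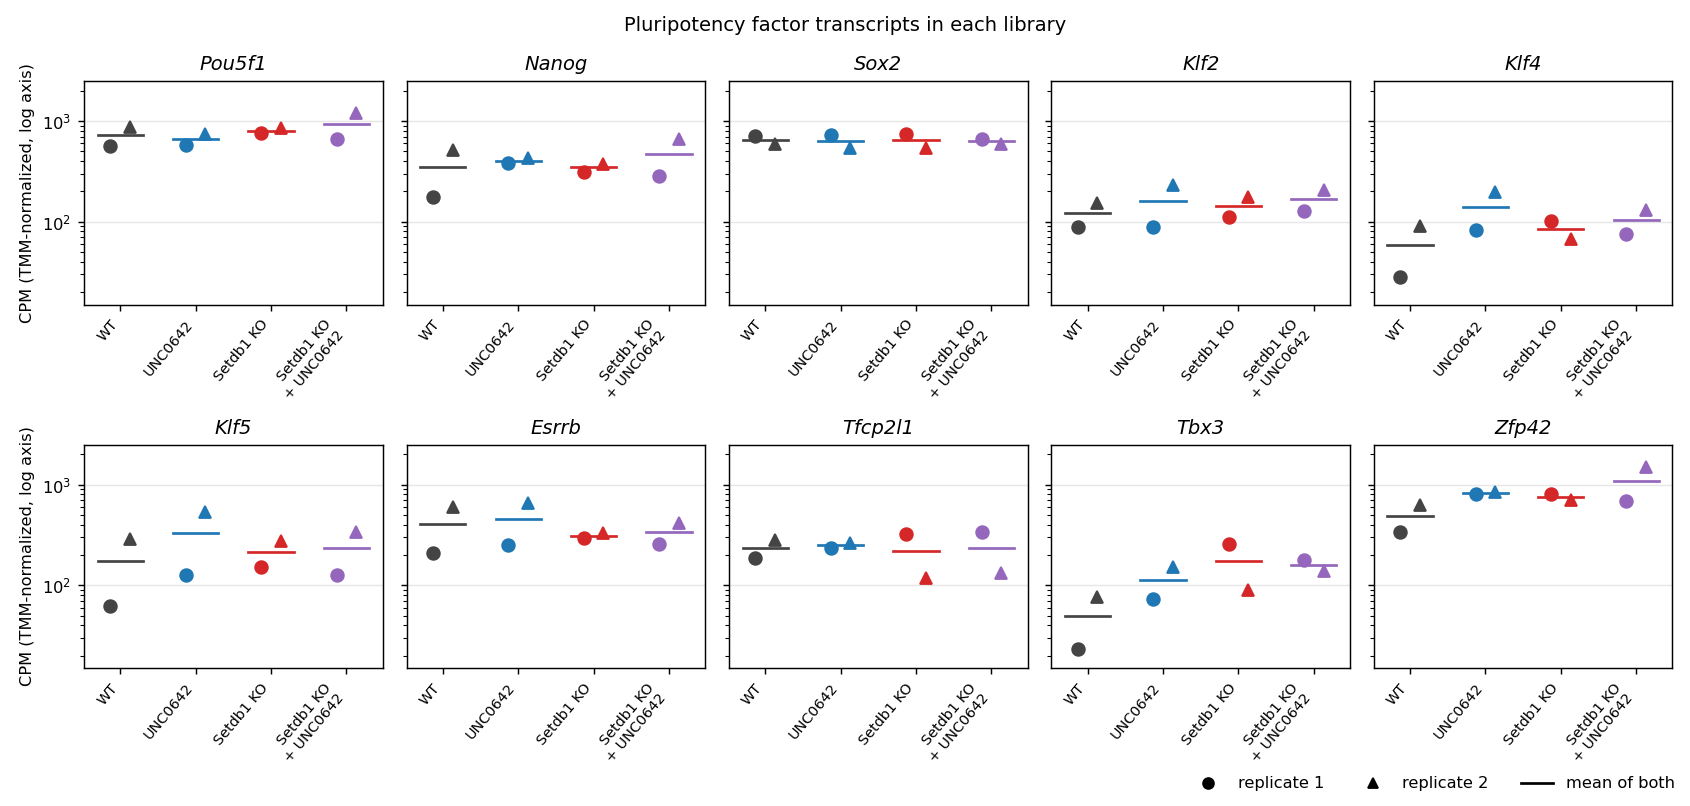
CPM (TMM-normalized, log axis) of the 10 pluripotency factors in the 4 groups. Circles are replicate 1, triangles replicate 2 and the line is the mean of both; WT replicate 1 is the lowest library for Nanog, Klf4, Klf5, Tbx3 and Zfp42, while the 8 values of Sox2 lie within 1.39-fold.

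None of the 10 factors passed an edgeR adjusted p of 0.05 in any comparison, with or without the replicate block, and none did with DESeq2. At an unadjusted p under 0.05, edgeR found 0 of 10 factors in the UNC0642 group over WT, 1 in the Setdb1 KO and 1 in the KO with UNC0642, and 0 between the KO with UNC0642 and either single treatment and for the interaction. Of all genes tested, 3.41%, 7.58%, 16.9%, 4.7%, 8.23% and 0.777% passed that limit in these 6 comparisons. With the replicate block the counts of factors were 3, 1, 2, 0, 0 and 0, beside 8.33%, 15.8%, 32.2%, 10.7%, 17.5% and 2.4% of all genes. At the adjusted p, over all genes tested, edgeR called 0% in the UNC0642 group, 0.888% in the Setdb1 KO and 3.62% in the KO with UNC0642 over WT, 0% for the KO with UNC0642 over the Setdb1 KO, 0.908% over the UNC0642 group and 0% for the interaction. With the block these shares were 0.176%, 3.32%, 15.7%, 0.124%, 3.79% and 0%. Even the largest of these adjusted shares corresponds to fewer than 2 of 10 genes, so 0 of 10 is near the background.

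The size of change that remains possible is set by the confidence intervals. On the log2 scale the 95% intervals of the fold changes over WT reached to either side of the estimate by an amount that ran from 0.97 for Sox2 to 1.94 for Klf5. In the 3 comparisons with WT a change above 10-fold in either direction lay outside the intervals of all factors, except for Tbx3 in the Setdb1 KO, whose upper bound was 10.3-fold. A 2-fold rise lay inside the interval in all 3 comparisons for 8 of the 10 factors, the exceptions being Sox2 in all 3 and Pou5f1 in the UNC0642 group. Median log2 fold changes of the 10 factors over WT were 0.31 (UNC0642 group), 0.20 (Setdb1 KO) and 0.43 (KO with UNC0642). Over all genes tested they were -0.04, -0.06 and -0.06. These 3 comparisons share the WT libraries, and WT replicate 1 was the lowest library for 7 of the 10 factors. Without WT replicate 1, the UNC0642 group gave -0.39 for Pou5f1, -0.35 for Nanog, 0.08 for Sox2, 0.05 for Klf2 and 0.64 for Klf4. For Klf5, Esrrb, Tfcp2l1, Tbx3 and Zfp42 it gave 0.19, -0.40, -0.16, 0.57 and 0.38, beside a median of 0.04 over all genes.

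**Figure D2:**
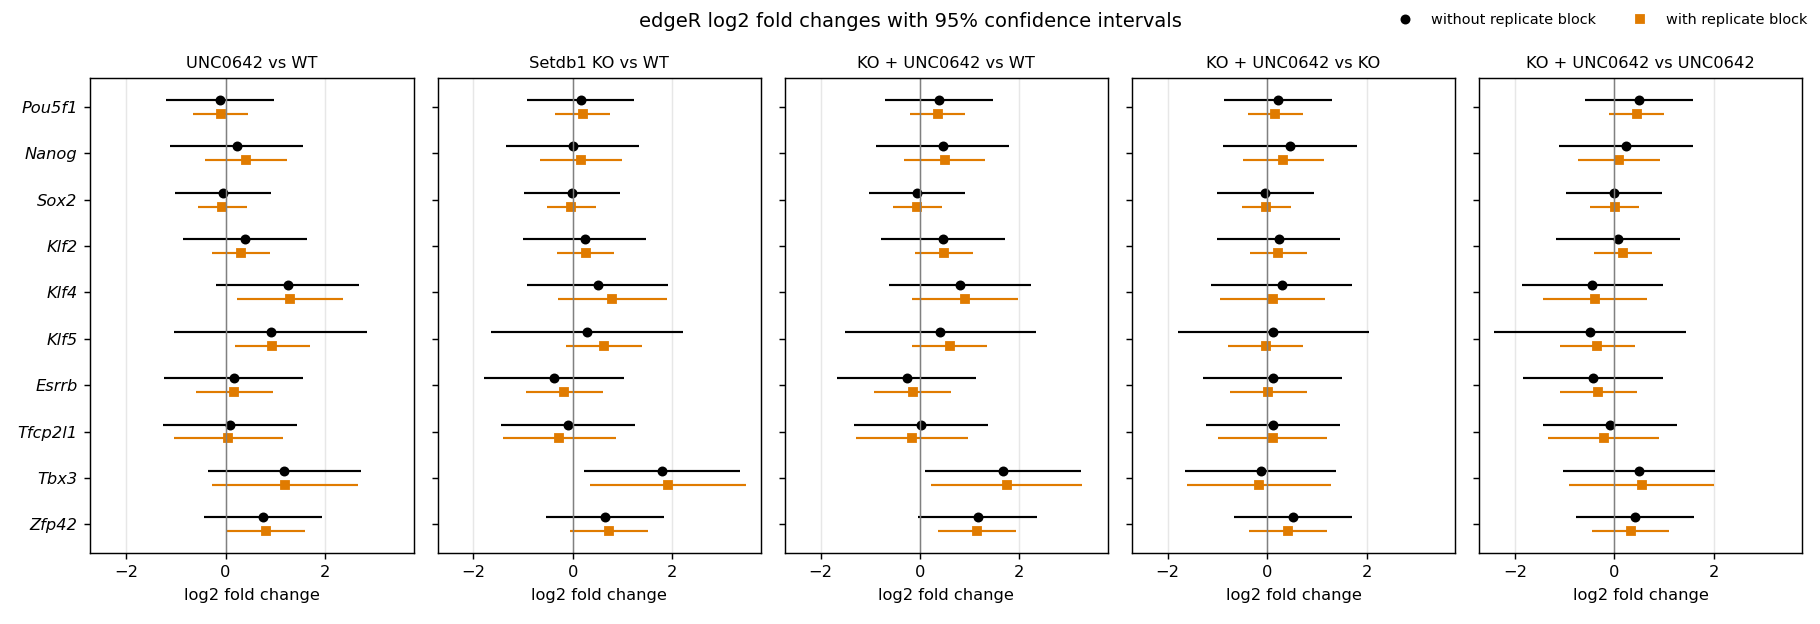
edgeR log2 fold changes of the 10 factors with 95% confidence intervals in 5 comparisons, without (black circles) and with (orange squares) the replicate number as a block. Without the block only the intervals of Tbx3 in the Setdb1 KO (0.23 to 3.37) and in the KO with UNC0642 (0.11 to 3.23) over WT exclude 0.

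Among the core factors, Pou5f1 (chr17:35506018-35510772, plus strand on GRCm38, GENCODE M21) encodes the POU domain protein without which the inner cell mass cannot keep its identity. Its CPM in replicates 1 and 2 were 567 and 872 in WT, 584 and 746 in the UNC0642 group, 755 and 852 in the Setdb1 KO, and 670.4 and 1196 in the KO with UNC0642. The groups overlapped in every comparison. Against WT, log2 fold changes were -0.11 (SE 0.48) in the UNC0642 group, 0.16 (SE 0.48) in the Setdb1 KO and 0.38 (SE 0.48) in the KO with UNC0642. The KO with UNC0642 differed on the log2 scale by 0.22 (SE 0.48) from the Setdb1 KO and by 0.49 (SE 0.48) from the UNC0642 group. An antisense gene, Gm19553, shares 317 exonic bases with Pou5f1 and has no row of its own in the counts, and no strand setting of the counting is stated beyond default parameters.

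Sox2 (chr3:34650405-34652461, plus strand), a single-exon gene whose protein partners OCT4, varied least over the libraries. Its CPM were 710.1 and 597 in WT, 719 and 541 in the UNC0642 group, 749.5 and 539.7 in the Setdb1 KO, and 668 and 589 in the KO with UNC0642. Relative to WT the log2 values were -0.05 (SE 0.43) in the UNC0642 group, -0.02 (SE 0.43) in the Setdb1 KO and -0.06 (SE 0.43) in the KO with UNC0642, and the KO with UNC0642 differed by -0.04 (SE 0.43) from the Setdb1 KO and by -0.0044 (SE 0.43) from the UNC0642 group. The widest bounds over these comparisons were 0.491 and 1.95-fold, the narrowest range of the 10 factors. Sox2 lies within the span of the noncoding gene Sox2ot, transcribed on the same strand, which had between 1 and 131 counts per library and no exon in common with the Sox2 transcript.

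Nanog (chr6:122707489-122714633, plus strand), the homeobox factor that can sustain self-renewal when LIF is withdrawn, had CPM of 176 and 517 in WT, 382 and 428 in the UNC0642 group, 314 and 378 in the Setdb1 KO, and 283 and 668 in the KO with UNC0642. The WT libraries lay on both sides of those of the UNC0642 group and of the Setdb1 KO. On the log2 scale the difference from WT was 0.22 (SE 0.60) in the UNC0642 group, -0.0025 (SE 0.60) in the Setdb1 KO and 0.46 (SE 0.60) in the KO with UNC0642. The KO with UNC0642 was apart by 0.46 (SE 0.60) from the Setdb1 KO and by 0.23 (SE 0.60) from the UNC0642 group. The replicates differed in direction. In replicate 1 Nanog was 2.17-fold of WT in the UNC0642 group and 1.78-fold in the Setdb1 KO, and in replicate 2 it was 0.828-fold and 0.731-fold.

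The 3 Krüppel-like factors act redundantly on many enhancers of the naive state. Klf4 (chr4:55527143-55532466, minus strand), a direct target of STAT3, had CPM of 28.0 and 90.6 in WT, 83.2 and 199 in the UNC0642 group, 101 and 67.5 in the Setdb1 KO, and 75.7 and 131 in the KO with UNC0642. WT replicate 1 was lowest, and 1 WT library lay among the treated ones in each comparison. edgeR gave log2 fold changes over WT of 1.25 (SE 0.64) in the UNC0642 group, 0.50 (SE 0.63) in the Setdb1 KO and 0.80 (SE 0.63) in the KO with UNC0642. With the replicate block edgeR gave 1.30 (SE 0.47, adjusted p = 0.477) for the UNC0642 group. Leaving out UNC0642 replicate 2 lowered that comparison to 0.44 and leaving out WT replicate 2 raised it to 2.36. Within replicates, Klf4 in the UNC0642 group was 2.97-fold and 2.20-fold of WT, whereas in the Setdb1 KO it was 3.61-fold in replicate 1 and 0.745-fold in replicate 2.

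Klf5 (chr14:99298691-99315036, plus strand), which is also needed for the trophectoderm of the blastocyst, had the widest intervals. Its CPM were 62.4 and 288 in WT, 127 and 531 in the UNC0642 group, 151 and 277 in the Setdb1 KO, and 126 and 341 in the KO with UNC0642, and in each group replicate 2 exceeded replicate 1. Fold changes over WT on the log2 scale were 0.91 (SE 0.86) in the UNC0642 group, 0.29 (SE 0.86) in the Setdb1 KO and 0.41 (SE 0.86) in the KO with UNC0642. With the block edgeR gave 0.94 (SE 0.33, adjusted p = 0.468) for the UNC0642 group, and the ratios to WT were 2.04 in replicate 1 and 1.84 in replicate 2. In the Setdb1 KO the same ratios were 2.42 and 0.960.

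Klf2 (chr8:72319033-72321656, plus strand), whose protein is destabilized when ERK is active, had CPM of 88.9 and 154 in WT, 88.1 and 230.5 in the UNC0642 group, 112 and 174 in the Setdb1 KO, and 128 and 208 in the KO with UNC0642. The groups overlapped throughout. Its log2 fold changes over WT were 0.39 (SE 0.55) in the UNC0642 group, 0.24 (SE 0.55) in the Setdb1 KO and 0.47 (SE 0.55) in the KO with UNC0642. For Klf4, the KO with UNC0642 differed on the log2 scale by 0.30 (SE 0.63) from the Setdb1 KO and by -0.45 (SE 0.63) from the UNC0642 group. The corresponding values were 0.23 (SE 0.55) and 0.08 (SE 0.55) for Klf2, and 0.13 (SE 0.86) and -0.50 (SE 0.86) for Klf5.

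Esrrb (chr12:86361117-86521628, plus strand) encodes an orphan nuclear receptor that is repressed by TCF7L1 and can stand in for Nanog. Its CPM were 211 and 599 in WT, 249.7 and 656 in the UNC0642 group, 294 and 328 in the Setdb1 KO, and 258 and 415 in the KO with UNC0642. The libraries of the Setdb1 KO and of the KO with UNC0642 lay between the WT libraries. Over WT the log2 fold change was 0.16 (SE 0.62) in the UNC0642 group, -0.38 (SE 0.62) in the Setdb1 KO and -0.27 (SE 0.62) in the KO with UNC0642. The KO with UNC0642 differed by 0.11 (SE 0.62) from the Setdb1 KO and by -0.43 (SE 0.62) from the UNC0642 group. Within replicates the log2 ratio of the Setdb1 KO to WT was 0.48 in replicate 1 and -0.87 in replicate 2, so the direction differed between them.

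Tfcp2l1 (chr1:118627945-118685168, plus strand), a CP2-family factor induced by LIF, had replicates that went apart in the groups given 4-OHT. Its CPM were 188 and 280.2 in WT, 235 and 264 in the UNC0642 group, 320.0 and 118 in the Setdb1 KO, and 341 and 131 in the KO with UNC0642. Both groups that received 4-OHT had replicate 1 above and replicate 2 below both WT libraries. The ratio to WT in the Setdb1 KO was 1.70 in replicate 1 and 0.420 in replicate 2, and in the KO with UNC0642 1.82 and 0.468. The log2 fold changes over WT, averaged over these replicates, were 0.09 (SE 0.60) in the UNC0642 group, -0.10 (SE 0.60) in the Setdb1 KO and 0.01 (SE 0.60) in the KO with UNC0642, and those of the KO with UNC0642 were 0.11 (SE 0.60) over the Setdb1 KO and -0.08 (SE 0.60) over the UNC0642 group.

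Tbx3 (chr5:119670669-119684724, plus strand), a T-box factor that supports Nanog expression and is also expressed on the way to primitive endoderm, gave the largest log2 fold change of the 10. Its CPM were 23.2 and 76.1 in WT, 72.5 and 153 in the UNC0642 group, 257 and 89.3 in the Setdb1 KO, and 177 and 139.6 in the KO with UNC0642. The libraries of the Setdb1 KO and of the KO with UNC0642 lay above both WT libraries, and UNC0642 replicate 1 lay just below WT replicate 2. Against WT, log2 fold changes were 1.18 (SE 0.68) in the UNC0642 group, 1.80 (SE 0.70) in the Setdb1 KO and 1.67 (SE 0.69) in the KO with UNC0642. The Setdb1 KO had an unadjusted p of 0.0287 and an adjusted p of 0.439 in the edgeR fit, and an adjusted p of 0.192 with the block. For the KO with UNC0642 these were 0.0383, 0.242 and 0.104 in edgeR.

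The 2 replicates of Tbx3 did not give the same size. The Setdb1 KO was 11.1-fold of WT in replicate 1 and 1.17-fold in replicate 2, the KO with UNC0642 was 7.66-fold and 1.83-fold, and the UNC0642 group was 3.13-fold and 2.01-fold. Without Setdb1 KO replicate 1 the log2 fold change of the Setdb1 KO over WT was 0.84, and without WT replicate 2 it was 2.90. In the UNC0642 group it was 0.50 without UNC0642 replicate 2 and 2.31 without WT replicate 2. Between treatments, the KO with UNC0642 differed by -0.13 (SE 0.68) from the Setdb1 KO and by 0.49 (SE 0.68) from the UNC0642 group. The interaction, which sets the change with UNC0642 after Setdb1 deletion against that in WT, was -1.31 (SE 0.96). An antisense gene, Tbx3os1, shares 115 exonic bases with Tbx3 and has no row in the counts.

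Zfp42 (chr8:43295063-43306980, minus strand), the zinc finger gene used as a reporter of the naive state, was the only factor with all 6 treated libraries above both WT libraries, as were 6.3% of all genes tested, which 1 of 10 does not set apart. Its CPM were 342 and 634 in WT, 802 and 841 in the UNC0642 group, 814 and 709 in the Setdb1 KO, and 685 and 1499 in the KO with UNC0642. Relative to WT the log2 values were 0.75 (SE 0.53) in the UNC0642 group, 0.64 (SE 0.53) in the Setdb1 KO and 1.16 (SE 0.53) in the KO with UNC0642, and the last had an unadjusted p of 0.0562 and an adjusted p of 0.293 in the edgeR fit. With the replicate block the adjusted p was 0.0531, the smallest of any factor and comparison in both fits. Without replicate 2 of the KO with UNC0642 the log2 fold change was 0.48, and without WT replicate 2 it was 1.68. Without WT replicate 1 and without WT replicate 2 the values were 0.38 and 1.29 in the UNC0642 group, and 0.26 and 1.15 in the Setdb1 KO. The ratio to WT was 2.34 and 1.33 in the UNC0642 group, 2.38 and 1.12 in the Setdb1 KO, and 2.00 and 2.37 in the KO with UNC0642 for replicates 1 and 2.

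Both libraries of a group lay above both WT libraries for 1 of 10 factors in the UNC0642 group (Zfp42; 13.1% of all genes tested), 2 in the Setdb1 KO (Tbx3 and Zfp42; 15.4%) and 2 in the KO with UNC0642 (Tbx3 and Zfp42; 19.8%). These counts are near the background. No factor had both libraries below both WT libraries, but the share of all genes that did was not counted. Compared within a replicate number, 5 factors changed in the same direction in both replicates in the UNC0642 group and 3 in the Setdb1 KO, all of them higher than WT. In the KO with UNC0642 8 factors did, 7 higher and Sox2 lower, by a ratio of 0.940 and 0.986. Of all genes tested, 58.8%, 54.1% and 64.5% had the same direction in both replicates in these comparisons, which share the WT libraries. These shares hold either direction, and the share of genes higher in both replicates was not counted. WT replicate 1 was also the lowest library for 7 of the 10 factors. The KO with UNC0642 over the Setdb1 KO and over the UNC0642 group gave 2 and 3 factors with the same direction, beside 61% and 63% of all genes.

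The interaction was not called for any of the 10 factors (edgeR adjusted p = 1). It ran from -1.31 (SE 0.96) for Tbx3 and -0.95 (SE 0.89) for Klf4 to 0.33 (SE 0.68) for Pou5f1 on the log2 scale. A value below 0 means that UNC0642 added less after Setdb1 deletion than without it. Of the other factors, Klf5 had -0.78 (SE 1.21), Zfp42 -0.23 (SE 0.74), Klf2 -0.16 (SE 0.78) and Esrrb -0.05 (SE 0.88). Sox2 had 0.02 (SE 0.61), Tfcp2l1 0.02 (SE 0.85) and Nanog 0.24 (SE 0.84). Every one of these intervals included 0, and they reached from -3.46 to 0.85 for Tbx3 and from -1.36 to 1.39 for Sox2. Zfp42 in the KO with UNC0642 differed by 0.52 (SE 0.53) from the Setdb1 KO and by 0.41 (SE 0.53) from the UNC0642 group.

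**Figure D3:**
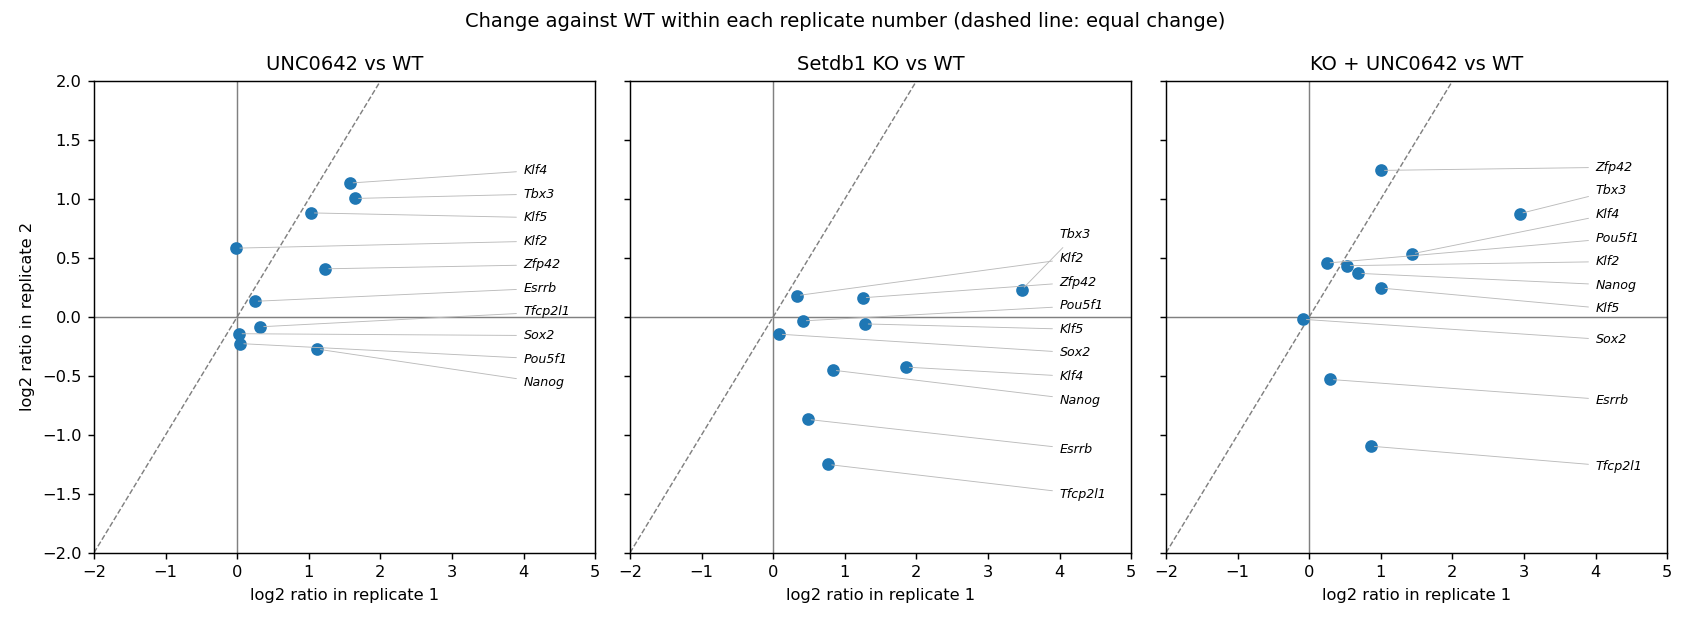
log2 ratio to WT of each factor in replicate 1 (x axis) and replicate 2 (y axis) for the 3 comparisons with WT; on the dashed line both replicates change equally. In the Setdb1 KO Tbx3 stands at 3.47 in replicate 1 and 0.23 in replicate 2, and Tfcp2l1 at 0.77 and -1.25.

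Some of the factors differed between the replicate numbers, as many other genes did. In the edgeR fit with group and replicate number, tested for the replicate number after the spread had been seen, 4 of the 10 factors passed an adjusted p of 0.05. All of them were higher in replicate 2. Of all 15313 genes tested 34.2% passed (2975 higher and 2261 lower). Counted in either direction, 4 of 10 is near that background, and whether the direction sets the factors apart was not tested. The log2 difference of replicate 2 from replicate 1 was 1.65 (SE 0.24, adjusted p = 0.00274) for Klf5, 0.88 (SE 0.18, adjusted p = 0.00798) for Klf2, 0.94 (SE 0.24, adjusted p = 0.0192) for Esrrb and 0.80 (SE 0.26, adjusted p = 0.0415) for Nanog. The other 6 did not pass. Pou5f1 had 0.50 (SE 0.17, adjusted p = 0.0536), Klf4 0.80 (SE 0.34, adjusted p = 0.0982) and Zfp42 0.47 (SE 0.24, adjusted p = 0.166). Tbx3 had 0.24 (SE 0.48, adjusted p = 0.735), Sox2 -0.33 (SE 0.15, adjusted p = 0.128) and Tfcp2l1 -0.52 (SE 0.36, adjusted p = 0.287).

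Pou5f1, Nanog, Klf2, Klf5 and Esrrb were higher in replicate 2 in all 4 groups, and Sox2 was lower in replicate 2 in all 4. The share of all genes with 1 direction in all 4 groups was not counted, so this does not set the factors apart. For Klf5 the log2 ratio of replicate 2 to replicate 1 was 2.21 in WT, 2.06 in the UNC0642 group, 0.87 in the Setdb1 KO and 1.44 in the KO with UNC0642. For Tbx3 the same ratio was 1.72, 1.07, -1.52 and -0.35, above 0 in the groups without and below 0 in those with 4-OHT. Once 1 library of a group is left out, the other library of that group holds no information on the replicate number. Leaving out either library of a group is therefore nearly the same fit, so these are not 8 separate checks. The log2 difference of Klf5 was 1.46 and 1.45 without WT replicates 1 and 2, and 1.51 without either UNC0642 library. It was 1.91 and 1.93 without those of the Setdb1 KO, and 1.71 and 1.74 without those of the KO with UNC0642. In the same order Nanog had 0.55 and 0.55, 1.02 and 1.02, 0.99 and 1.01, and 0.65 and 0.68. Klf4 had 0.50 and 0.50, 0.64 and 0.64, 1.25 and 1.27, and 0.80 and 0.83. Tfcp2l1 had -0.90 and -0.90, -0.77 and -0.77, -0.195 and -0.17, and -0.22 and -0.19. The size of the difference thus varied with the group that was left out. DESeq2 with the same terms called 5, the 4 that edgeR called and Pou5f1 (adjusted p = 0.0315). The share of all genes that DESeq2 called was not counted, so this does not set the factors apart. What the replicate numbers stand for beyond biological replicates is not given in the sources used here, and what differed between them was not tested.

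**Figure D4:**
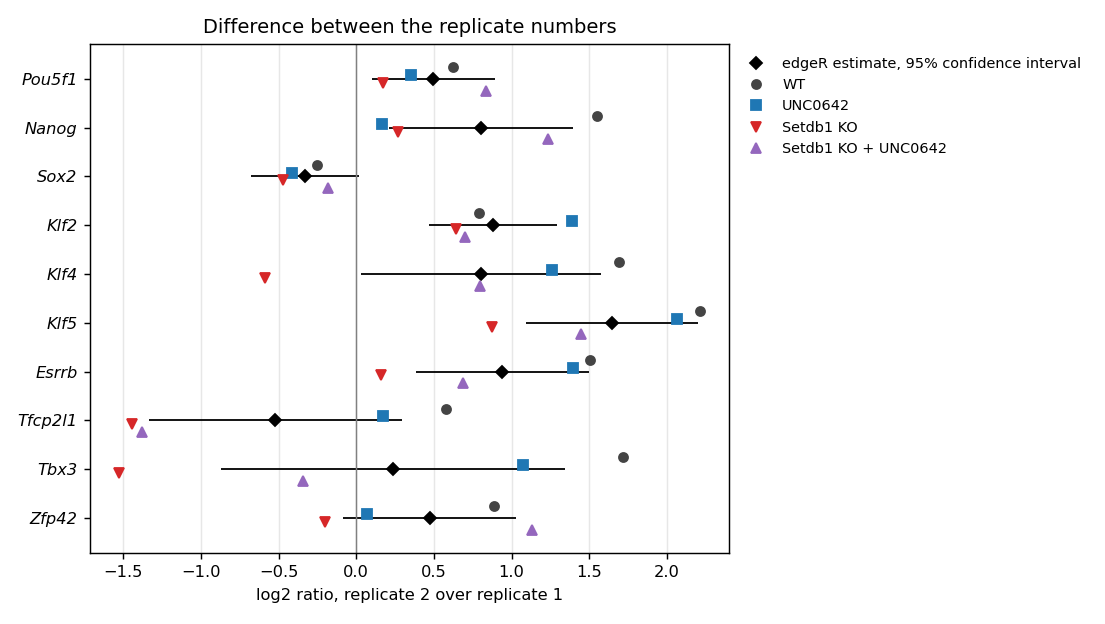
log2 ratio of replicate 2 over replicate 1 for each factor. Coloured markers are the 4 groups and black diamonds the edgeR estimate over all groups with its 95% confidence interval; Klf5 has the largest estimate (1.65), all 4 groups of Sox2 lie below 0, and the groups of Tbx3 and Tfcp2l1 lie on both sides of 0.

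Among genes of the pathways that act on these factors, the same edgeR test called 0 members of 5 lists in every comparison. At an unadjusted p under 0.05 in the KO with UNC0642 over WT, 0 of 16 other pluripotency-associated genes, 1 of 13 LIF, JAK and STAT3 genes, 2 of 13 WNT genes, 2 of 17 FGF and ERK genes and 0 of 8 BMP genes were found, beside 16.9% of all genes tested. DESeq2 called 1 FGF and ERK gene there, beside 1304 of all genes. Of 16 other pluripotency-associated genes, the smallest p over WT were those of Sall4, at 0.78 (SE 0.43, adjusted p = 0.392), and Lin28a, at 0.88 (SE 0.59, adjusted p = 0.499), both in the KO with UNC0642. Of 13 genes of the LIF, JAK and STAT3 pathway, the kinase gene Tyk2 was at -1.60 (SE 0.74, adjusted p = 0.299) in the same comparison. It fell with the block (adjusted p = 0.00992), which called 15.7% of all genes tested there. The LIF, JAK and STAT3 list had a median of -0.06, -0.26 and -0.19 in the 3 comparisons with WT, where the 10 factors had 0.31, 0.20 and 0.43.

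Of 14 genes of the WNT, beta-catenin and TCF pathway 13 passed the filter. Tcf7 was at -1.46 (SE 0.54, adjusted p = 0.188) in the KO with UNC0642 and Axin2, a feedback inhibitor and readout of the pathway, at 1.58 (SE 0.59, adjusted p = 0.398) in the Setdb1 KO. With the block Tcf7, Lrp5 and Lrp6, the last 2 encoding WNT co-receptors, fell in the KO with UNC0642 (3 of 13, adjusted p = 0.0429, 0.0183 and 0.0256). The block called 15.7% of all genes tested in this comparison. Of 17 genes of the FGF and ERK pathway, the immediate early gene Egr1 was at 2.60 (SE 0.90, adjusted p = 0.159) in the KO with UNC0642. The feedback inhibitor Spry2 was at 1.58 (SE 0.61, adjusted p = 0.211) there. With the block both rose (adjusted p = 0.0344 and 0.0226) while the kinase genes Mapk3 and Map2k1 fell (adjusted p = 0.00992 and 0.0403). That was 2 higher and 2 lower of 17, beside the same 15.7% of all genes. Of 8 BMP, SMAD and ID genes, Smad5 was at -0.43 (SE 0.39, adjusted p = 0.653) and Id1 at 0.68 (SE 0.87, adjusted p = 0.772).

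Markers of the formative and primed states, which follow the naive one, held 1 called gene of 11. It was called in the KO with UNC0642 over WT, where edgeR called 3.62% of all genes tested. Fgf5, a growth factor gene of the primed state, rose in the KO with UNC0642, with a log2 fold change of 4.64 (SE 1.09, adjusted p = 0.0493), and was at 4.88 (SE 1.10, adjusted p = 0.0873) in the Setdb1 KO, where it passed with the block (adjusted p = 0.0319). The CPM of Fgf5 were 0.0871 and 0.469 in WT, 1.60 and 1.87 in the UNC0642 group, 13.6 and 5.06 in the Setdb1 KO, and 13.7 and 2.24 in the KO with UNC0642, with 1 and 13 counts in the WT libraries. Otx2 had CPM of 60.4 and 33.0 in WT, 67.6 and 25.8 in the UNC0642 group, 322 and 228 in the Setdb1 KO, and 118 and 155 in the KO with UNC0642, and its log2 fold change in the Setdb1 KO was 2.56 (SE 0.56, adjusted p = 0.0821), with an adjusted p of 0.00851 with the block. With the block 2 of 11 were called higher in the Setdb1 KO (Fgf5 and Otx2), and 2 higher (the same pair) and 1 lower (Tead2) in the KO with UNC0642. Over all genes tested the block called 3.32% and 15.7% in these 2 comparisons. The median of the list was -0.23, 0.18 and 0.23 in the UNC0642 group, the Setdb1 KO and the KO with UNC0642.

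The largest list medians were those of the 2-cell stage markers, genes of the early embryo that few mESCs express at a time. Of 12 tested (Duxf3 has no row), edgeR called 0 higher in the UNC0642 group, 1 in the Setdb1 KO and 12 in the KO with UNC0642. With the block these were 2, 10 and 12. Of all genes tested, edgeR called 0%, 0.888% and 3.62% in either direction, and 0.176%, 3.32% and 15.7% with the block. At an unadjusted p under 0.05, and with DESeq2, 12 of 12 passed in each of the 3 comparisons. Of all genes tested, 3.41%, 7.58% and 16.9% had that unadjusted p, and DESeq2 called 110, 445 and 1304 genes. The median log2 fold change of the 12 was 4.85, 3.90 and 5.85. Their summed level ran from 13.2 to 39.0 CPM in WT, 386 to 1157 in the UNC0642 group, 213 to 581 in the Setdb1 KO and 847 to 2141 in the KO with UNC0642. In the KO with UNC0642 the smallest p were those of the deubiquitinase genes Usp17la, at 6.72 (SE 0.88, adjusted p = 0.00590), and Usp17lc, at 5.77 (SE 0.81, adjusted p = 0.00700), followed by Zscan4d, at 6.14 (SE 0.94, adjusted p = 0.00948), and Zfp352, at 7.29 (SE 1.14, adjusted p = 0.00998). The Zscan4 and Usp17 genes are near-identical copies, so the split of reads among them is uncertain. Without WT replicate 1 edgeR called 0 genes in both KO comparisons with WT, where it had called 136 and 554 with all libraries, so the calls of Fgf5 and of the 2-cell genes were lost there. In each treated group replicate 1 held more of these transcripts than replicate 2. WT went the other way, with 13.2 CPM in replicate 1 and 39.0 in replicate 2. Pou5f1, Nanog, Klf2, Klf5 and Esrrb were higher in replicate 2 in all 4 groups, WT included. The part of the 2-cell transcripts in the replicate difference of the factors was not tested.

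Markers of other lineages were counted beside the factors, all 10 of which, as markers of the labelled cell type, were above 0 in all 8 libraries. Calls by edgeR were 0 for trophectoderm (9 of 12 genes tested), primitive endoderm (10 of 10), early mesoderm and neural (7 of 10) and fibroblast markers (8 of 10) in every comparison. In the KO with UNC0642 over WT, 0, 2, 1 and 3 of them had an unadjusted p under 0.05, beside 16.9% of all genes tested. DESeq2 called 0, 0, 0 and 3 of them there, beside 1304 of all genes. Their summed levels over the libraries of a group were, in WT and in the KO with UNC0642, 80.9 to 95.1 and 32.2 to 78.7 CPM for trophectoderm, 214 to 497 and 168 to 289.7 for primitive endoderm, 75.9 to 149 and 125 to 191 for mesoderm and neural, and 555 to 564 and 518 to 911 for fibroblast markers, beside 2396 to 4108 and 3412 to 5318 for the 10 factors.

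By the smallest p over WT, Krt8 was at 1.44 (SE 0.53, adjusted p = 0.391) in the Setdb1 KO and Eomes at -1.49 (SE 0.73, adjusted p = 0.325) in the KO with UNC0642. Among the endoderm markers Pdgfra was at 1.96 (SE 0.63, adjusted p = 0.895) in the UNC0642 group and the laminin gene Lama1 at -1.82 (SE 0.70, adjusted p = 0.208) in the KO with UNC0642. Mixl1 was at -2.59 (SE 0.94, adjusted p = 0.181) in the KO with UNC0642 and Sox1 at -1.00 (SE 0.83, adjusted p = 0.971) in the Setdb1 KO. Of the fibroblast list, Pdgfrb was at -2.69 (SE 0.66, adjusted p = 0.0560) and the intermediate filament gene Vim, which mESCs express as well, at 2.90 (SE 0.72, adjusted p = 0.0596) in the KO with UNC0642. With the block Eomes, Lama1 and Pdgfrb fell in this comparison (adjusted p = 0.0347, 0.0320 and 0.0122), and Vim and Lum rose (adjusted p = 0.00150 and 0.0198). The block called 15.7% of all genes tested there. Lum, the gene of an extracellular matrix proteoglycan, had 0 counts in both WT libraries and 28 and 39 in the KO with UNC0642. In the Setdb1 KO the block also called Lama1 lower and Vim higher (adjusted p = 0.0480 and 0.0449), beside 3.32% of all genes tested.

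**Figure D5:**
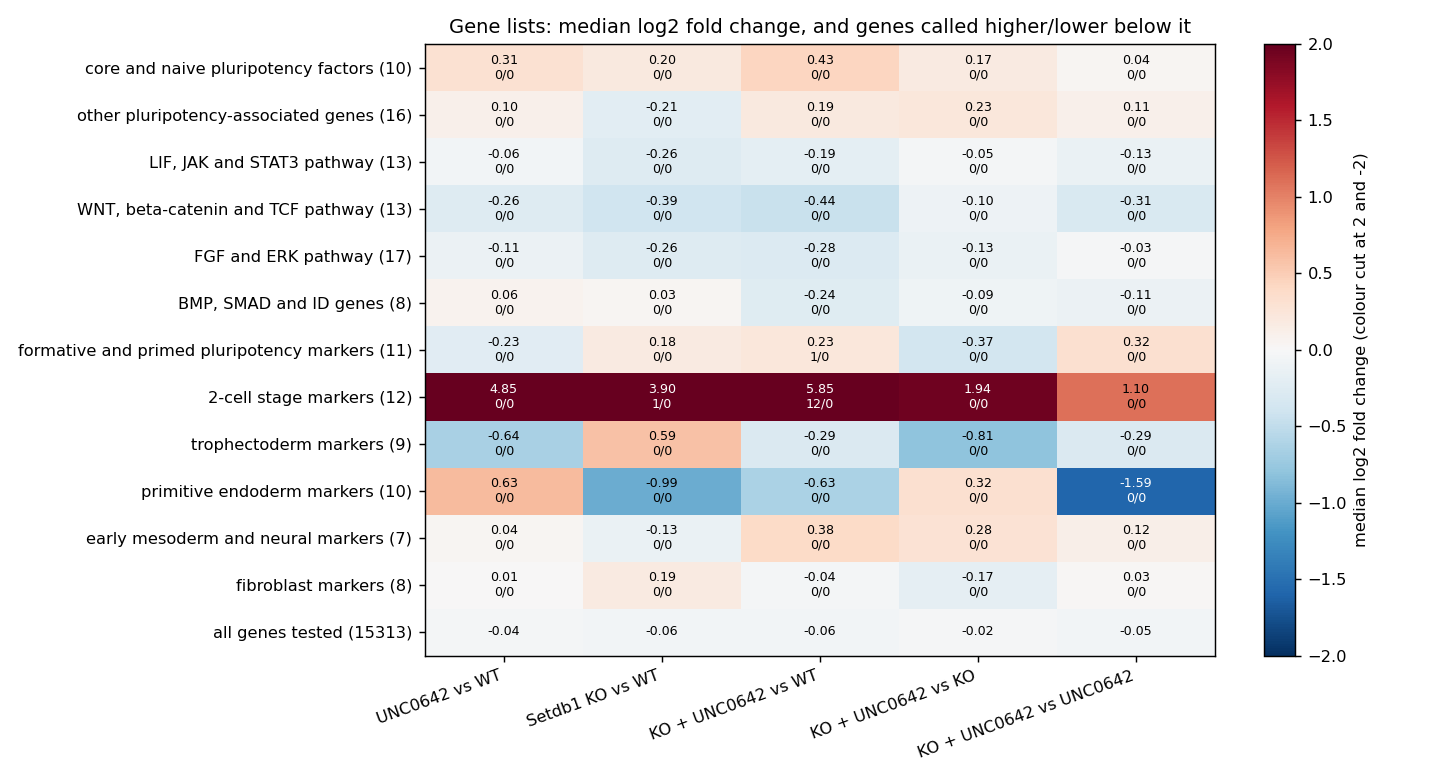
Median log2 fold change of the 10 factors, of 11 other gene lists and of all genes tested in 5 comparisons, with the genes called higher/lower by edgeR without the block printed below it (number of genes tested in brackets). The medians of the 10 factors lie between 0.04 and 0.43, and only the 2-cell stage and the formative and primed markers hold called genes.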

How the data were processed

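Counts for 8 RNA-seq libraries were analysed. The authors trimmed reads with Trim Galore 0.3.7, mapped them to GRCm38 with TopHat2 and assigned them with TEtranscripts. What they deposited are raw counts of 24062 genes and 1153 transposable element subfamilies, neither normalized nor filtered. Groups and replicate numbers were taken from the labels. The filterByExpr rule at 10 counts, with a minimum of 15 in total, retained 15313 genes and 932 subfamilies. Libraries were scaled by TMM (factors 0.810 to 1.20). CPM use these library sizes, which include the subfamilies (2.77% to 17.1% of counts).

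The quasi-likelihood test of edgeR 4.0.16 (R 4.3.3) was fitted to all 8 libraries, with Benjamini-Hochberg adjustment over genes and subfamilies and a threshold of 0.05. SEs and 95% intervals were derived from the F statistic. A fold threshold of 10, which the study adds, was not needed as no factor was called. The replicate deviations of the 6 pairs of groups correlated at 0.285 or more, so the replicate numbers were taken to pair the libraries, and the fit with that block is given beside the other. Nothing in the labels says that libraries of 1 number were cultured together. The p-values rest on the spread between the 2 replicates, estimated over the 4 groups together. With the block they rest on what remains of it after the replicate number. Alternatives were DESeq2 1.42.0, edgeR on 4 libraries, other normalizations, no filter, genes only and leaving out each library. The test of the replicate number was added after the data were seen. The code was tested on simulated data.

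The factors and lists were chosen with earlier results of these data known. All 10 factors are named. From each other list the genes called without the block are named (at most 4, by p), or else the 2 with the smallest p over WT mESCs, and, chosen after their values were seen, some called only with the block. A gene that this rule also names is not reported here. Genes were placed on GENCODE M21, and transcript lengths are those of the principal transcript. Upstream windows came from RefSeq (GRCm38.p6). Figures used Python 3.11.15 and matplotlib 3.10.9.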

Additional observations from a re-analysis of the deposited data

How the results depend on the processing

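The count of called factors was 0 in all 6 comparisons under DESeq2 (all libraries or the 4 compared), edgeR on the 4 libraries compared, the replicate block, RLE and total counts normalization, no filter, genes without subfamilies and leaving out each library. The replicate block gave 0 of 10 and changed no call of a factor in any comparison. Across all genes the count of called genes moved by more than 1.5 times. Under the block it was 27, 509, 2407, 19 and 580 in the order of the comparisons in the report, under DESeq2 on all libraries 110, 445, 1304, 101 and 461, and without the filter 45, 230, 710, 5 and 223. Without WT replicate 1 it was 0 in both Setdb1 KO comparisons with WT mESCs, and without WT replicate 2 it was 0 and 47. Total counts normalization gave 80, 380 and 53 where TMM gave 136, 554 and 139, and moved the median of all genes in UNC0642-treated Setdb1 KO over WT mESCs to -0.23. When a library was left out, the log2 difference between the replicate numbers ran from 1.45 to 1.93 for Klf5 and from 0.55 to 1.02 for Nanog.

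Of 940 alternative log2 fold changes of the factors, 106 changed sign and none passed the threshold; the cause was not tested. Of these 20 came from another processing. Nanog was 0.17 with the block and 0.06 with genes only (KO/WT). Sox2 (KO+UNC0642/UNC0642) was 0.03 and 0.01 with DESeq2 on all and on 4 libraries, 0.01 with the block, 0.03 with RLE and 0.04 with genes only. Sox2 was 0.04 (KO/WT) and 0.02 (KO+UNC0642/WT) with genes only, and -0.09 and -0.01 in the interaction with total counts and no filter. Tfcp2l1 was -0.16 with the block and -0.26 with total counts and -0.001 with no filter (KO+UNC0642/WT), -0.00048 with total counts (KO+UNC0642/KO), and -0.12 and -0.01 in the interaction with total counts and no filter. Klf5 was -0.03 (KO+UNC0642/KO) and Nanog -0.08 (interaction) with the block, and Klf2 was -0.17 (KO+UNC0642/UNC0642) with total counts. The other 86 came from leaving out 1 library, which gave these lowest and highest values. Pou5f1 ranged -0.39 to 0.25 (UNC0642/WT), -0.12 to 0.49 (KO/WT), -0.11 to 0.73 (KO+UNC0642/WT), -0.22 to 0.57 (KO+UNC0642/KO), -0.10 to 0.68 (interaction). Zfp42 ranged -0.12 to 0.97 (KO+UNC0642/KO), -0.25 to 0.86 (KO+UNC0642/UNC0642), -0.85 to 0.22 (interaction). Sox2 ranged -0.27 to 0.11 (UNC0642/WT), -0.28 to 0.17 (KO/WT), -0.16 to 0.06 (KO+UNC0642/WT), -0.24 to 0.22 (KO+UNC0642/KO), -0.18 to 0.21 (KO+UNC0642/UNC0642), -0.18 to 0.26 (interaction). Nanog ranged -0.35 to 1.22 (UNC0642/WT), -0.58 to 0.96 (KO/WT), -0.30 to 1.44 (KO+UNC0642/WT), -0.25 to 0.94 (KO+UNC0642/KO), -0.51 to 0.71 (KO+UNC0642/UNC0642), -0.75 to 0.80 (interaction). Esrrb ranged -0.74 to 1.14 (UNC0642/WT), -0.95 to 0.55 (KO/WT), -0.84 to 0.68 (KO+UNC0642/WT), -0.23 to 0.41 (KO+UNC0642/KO), -0.97 to 0.44 (KO+UNC0642/UNC0642), -1.00 to 0.87 (interaction). Klf2 ranged -0.50 to 0.93 (UNC0642/WT), -0.15 to 0.68 (KO/WT), -0.12 to 0.60 (KO+UNC0642/KO), -0.47 to 0.94 (KO+UNC0642/UNC0642), -0.70 to 0.75 (interaction). Klf5 ranged -0.51 to 2.44 (UNC0642/WT), -0.43 to 1.77 (KO/WT), -0.50 to 1.91 (KO+UNC0642/WT), -0.73 to 0.67 (KO+UNC0642/KO), -1.40 to 0.88 (KO+UNC0642/UNC0642), -2.29 to 0.66 (interaction). Klf4 ranged -0.10 to 1.58 (KO/WT), -0.12 to 0.63 (KO+UNC0642/KO), -0.95 to 0.32 (KO+UNC0642/UNC0642). Tfcp2l1 ranged -0.16 to 0.43 (UNC0642/WT), -0.99 to 0.42 (KO/WT), -0.84 to 0.54 (KO+UNC0642/WT), -0.75 to 1.00 (KO+UNC0642/KO), -0.94 to 0.46 (KO+UNC0642/UNC0642), -0.84 to 0.90 (interaction). Tbx3 ranged -0.68 to 0.82 (KO+UNC0642/KO).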
